A study of Mus musculus with 4 samples.

Results

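The 5 genes described here are members of the Ifitm family that the count tables list by symbol: *Ifitm1*, *Ifitm2*, *Ifitm3*, *Ifitm6* and *Ifitm10*, out of 27998 genes. They were followed in CD8+ T cells, CD4+ T cells, NK-like cells and monocyte-like cells of mouse blood. The libraries hold CD3+ T cells enriched from the blood of C57BL/6 mice carrying the colorectal tumor MC-38, a syngeneic line injected under the skin, sampled on day 18 after tumor challenge. The groups number 4, with 1 library each. One came from untreated animals. Another came from animals given anti-PD-L1, which blocks an inhibitory ligand, on days 10, 13 and 17, and a further one from animals given anti-OX40 with CpG on day 7, which triggers a costimulatory receptor and the DNA sensor TLR9. The last, PDOX, received both regimens. The label of the third library names OX40 alone, and the regimen with CpG is taken from the study's methods. With 1 library per group, the mouse or mice behind it, the library and the treatment cannot be told apart, no test between treatments was possible, and every interval given covers counting error only. The members and the readouts were chosen for their pattern across these libraries, so levels, shares, co-detection and the relation to *Id2* and *Klrk1* are given as a description.

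IFITM proteins are small membrane proteins, several of them induced by interferons. IFITM1, IFITM2 and IFITM3 are best known for blocking the fusion of enveloped viruses with cell membranes, with IFITM3 acting mainly in endosomes, and their genes also respond to other signals. *Ifitm6* is a rodent member described in myeloid cells, and *Ifitm10* is the least studied of these genes. *Id2* encodes an inhibitor of DNA binding that is used by effector T cells and NK cells, and *Klrk1* encodes NKG2D, an activating receptor of NK cells and cytotoxic T cells.

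*Ifitm2*, *Ifitm1*, *Ifitm3* and *Ifitm6* lie side by side on mouse chromosome 7 (build GRCm38.p6), where they span 62.1 kb. *Ifitm2* (ENSMUSG00000060591) lies at chr7:140954837-140959686 on the minus strand and *Ifitm1* (ENSMUSG00000025491) at chr7:140967429-140969827 on the plus strand. *Ifitm3* (ENSMUSG00000025492) at chr7:141009590-141010744 and *Ifitm6* (ENSMUSG00000059108) at chr7:141015812-141016892 follow on the minus strand. *Ifitm10* (ENSMUSG00000045777) lies 1.31 Mb further along, at chr7:142325835-142373779 on the minus strand. The annotation lists all 5 as protein coding. The members resemble each other in sequence, and how reads that match several of them were counted is not given in the sources used here.

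The start regions of the members were searched for letters of the interferon-stimulated response element, to which interferon-activated transcription factors bind. The core letters GAAANNGAAA were searched on both strands in RefSeq promoter windows of 300 bases, from 250 before to 50 after a transcript start. They occurred in 1131 of 32851 windows, or 3.44%. The window of *Ifitm2* held 1 match, 46 bases before a transcript start at base 140955961 that lies inside the annotated gene. The window of *Ifitm3* held 2 matches, beginning at transcribed bases 3 and 20. Those of *Ifitm1*, *Ifitm6* and *Ifitm10* held none, which says only that these letters are not in these windows. The stretches with matches are shown on the gene's own strand, with the matches in capitals:
*Ifitm2*, chr7:140955988-140956017, minus strand: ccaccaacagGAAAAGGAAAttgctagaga
*Ifitm3*, chr7:141010713-141010742, minus strand: GAAAAGGAAActtctgaGAAACCGAAActg
The core letters of the interferon-gamma activated site, TTCNNNGAA, occurred in 2726 windows, or 8.3%, among them those of *Ifitm3*, at transcribed base 14, where it overlaps the match that begins at base 20, and *Ifitm6*, 10 bases before the start. A match of letters is a description and not a sign of binding.

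Of the droplets deposited, 5299 had at least 200 genes and were kept, 784 to 1559 per library, with library medians of 1454.5 to 1647 UMIs (unique molecular identifiers, each marking 1 captured transcript) per cell. Hemoglobin transcripts took 7.99% of the deposited UMIs in the untreated library and 0.344% to 1.70% in the others. Of 5418 barcodes, 16 occurred in more than 1 library, none with identical counts. CD8+ T cells were droplets with a *Cd3* UMI and a *Cd8a* or *Cd8b1* UMI but none of *Cd4*, and CD4+ T cells the converse. There were 310, 629, 661 and 446 CD8+ T cells and 93, 189, 266 and 297 CD4+ T cells, given for the untreated library first, then anti-PD-L1, then anti-OX40/CpG and last PDOX, the order used throughout. *Cd3d* was detected in 94.6% of the CD8+ T cells. NK-like cells (67, *Ncr1* in 83.6%) and monocyte-like cells (90, *Lyz2* in 95.6% and *Csf1r* in 74.4%) were what the enrichment left of other blood cells. Levels are UMIs per 10000 UMIs of the same cells, and a UMI is counted at the 3′ end, so levels are not scaled by gene length.

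Some T-gate droplets also met the marker number of another cell type, that is a monocyte, neutrophil, basophil, platelet, B cell or epithelial cell. These mixed droplets were 12, 30, 5 and 11 of the CD8+ and 5, 10, 3 and 8 of the CD4+ T-gate droplets, and they held a share of the family's UMIs far above their number. In CD8+ T cells they held 32.6% of the *Ifitm1*, 16.6% of the *Ifitm2*, 38.1% of the *Ifitm3* and 3.03% of the *Ifitm10* UMIs. The corresponding shares in CD4+ T cells were 25.9%, 2.73%, 22.3% and 5.56%. All 84 *Ifitm1* UMIs of the untreated CD4+ T cells lay in 1 droplet that carried epithelial genes. Of the *Ifitm3* UMIs of untreated cells, 40 of 47 (CD8+) and 25 of 28 (CD4+) lay in 1 mixed droplet each. Levels in T cells are therefore given with and without mixed droplets; the exclusion and the list of 13 epithelial genes were chosen after the values were seen.

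*Ifitm1* was not detected in untreated CD8+ T cells and was found in all 3 treated libraries. It was detected in 0 of 310 untreated CD8+ T cells, which allows a share of up to 0.968%, and in 39 of 629 (6.20%), 20 of 661 (3.03%) and 31 of 446 (6.95%) treated ones. The levels were 0, 4.98, 1.48 and 6.14 UMIs per 10000, from 0, 611, 175 and 492 UMIs. Without mixed droplets they were 0, 3.33, 1.504 and 4.29, in 0%, 5.34%, 3.05% and 6.67% of cells. The treated libraries thus lay above the untreated one with and without mixed droplets, and the anti-OX40/CpG library lay lowest of the treated ones. Against a floor of 3 UMIs in the untreated cells, the PDOX level was at least 99.8-fold higher, or at least 65.5-fold without mixed droplets. These bounds treat UMIs as independent, while many UMIs shared a cell, so they are too high. Counted by cells, 6.95% of PDOX cells were positive against up to 0.968% of untreated ones. Most *Ifitm1* UMIs came from few cells: without mixed droplets the richest single CD8+ T cell of the treated libraries held 62 (anti-PD-L1), 61 (anti-OX40/CpG) and 36 UMIs (PDOX). Many positive cells held only 1 UMI, that is 21 of 32, 8 of 20 and 8 of 29 in the same order. In the anti-PD-L1 library 9 cells carried 340 of the 368 UMIs.

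In CD4+ T cells the order of the libraries for *Ifitm1* turned on the mixed droplets. Over the whole gate the levels were 5.67, 1.61, 2.34 and 9.18 UMIs per 10000, and without mixed droplets they were 0, 0.109, 2.42 and 8.33. The corresponding shares without mixed droplets were 0%, 1.68%, 5.32% and 9.69% of cells. The PDOX level was 1.62-fold (95% interval 1.28 to 2.07) that of the untreated library over the whole gate and at least 35.1-fold higher without mixed droplets. The interval treats UMIs as independent, while all 84 untreated UMIs lay in 1 droplet, so it is too narrow. The bound is too high in the same way. In the anti-PD-L1 library only 3 UMIs remained without mixed droplets, so that *Ifitm1* in CD4+ T cells was seen almost wholly after anti-OX40/CpG (114 UMIs) and PDOX (429 UMIs). The 28 positive PDOX cells held a median of 12.5 UMIs each.

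*Ifitm2* was scarce in CD8+ T cells and rich in the CD4+ T cells of the PDOX library. In CD8+ T cells its levels were 0.185, 0.505, 0.365 and 0.686 UMIs per 10000, from 9, 62, 43 and 55 UMIs, and 8 of the 9 untreated UMIs lay in mixed droplets. Without these the levels were 0.0218, 0.453, 0.335 and 0.686, in 0.336%, 2.50%, 2.29% and 4.37% of cells. The intervals of the shares of the 3 treated libraries overlapped each other. The levels in CD4+ T cells were 0.338, 0.198, 1.78 and 7.10, and without mixed droplets 0, 0.182, 1.84 and 7.22, in 0%, 2.79%, 6.46% and 16.96% of cells. The PDOX level in CD4+ T cells was 21.0-fold that of the untreated library (8.93 to 65.1), from 379 against 5 UMIs, and at least 30.4-fold higher without mixed droplets. All 5 untreated UMIs lay in 1 mixed droplet. The interval and the bound treat UMIs as independent, so the interval is too narrow and the bound too high. Of the PDOX CD4+ T cells that were not mixed, 29 held at least 5 *Ifitm2* UMIs, and together they carried 339 of the 372 UMIs.

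*Ifitm3*, the most abundant member in monocyte-like cells, stayed low in T cells. In CD8+ T cells its levels were 0.964, 0.489, 0.212 and 0.287 UMIs per 10000 over the whole gate, highest in the untreated library, and 0.153, 0.525, 0.129 and 0.215 without mixed droplets, highest in the anti-PD-L1 library. The shares of cells without mixed droplets were 2.35%, 6.84%, 1.52% and 2.07%. The levels in CD4+ T cells were 1.89, 0.297, 0.533 and 1.26, and without mixed droplets 0.238, 0.292, 0.530 and 1.26, in 3.41%, 3.91%, 3.802% and 8.997% of cells. Without mixed droplets the PDOX library was thus the highest of the 4 in CD4+ but not in CD8+ T cells. The PDOX to untreated ratio was 0.664 over the whole CD4+ gate (0.421 to 1.07) and 5.31 without mixed droplets (1.74 to 26.4), so its direction turned on 1 untreated droplet.

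*Ifitm6* was all but undetected in T cells, with 2, 1, 1 and 0 UMIs in CD8+ and 1, 0, 0 and 0 in CD4+ T cells. Without mixed droplets 1, 1, 0 and 0 UMIs remained in CD8+ and none in CD4+ T cells.

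*Ifitm10* differed from the others in where it was found. In CD8+ T cells it was detected in 5.16%, 4.93%, 11.7% and 11.2% of cells, with levels of 0.328, 0.285, 0.738 and 0.749 UMIs per 10000. The anti-PD-L1 level was 0.870-fold that of the untreated library (0.469 to 1.68), whereas the anti-OX40/CpG and PDOX levels were 2.25-fold (1.31 to 4.11) and 2.28-fold (1.30 to 4.25). Both libraries that received anti-OX40/CpG thus lay above both that did not, and the levels without mixed droplets were 0.349, 0.299, 0.748 and 0.753. The gene was spread thinly, with mostly 1 UMI in a positive cell. Its CD4+ T cells numbered 1, 3, 6 and 22, the last being 7.41% of the PDOX cells.

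**Figure D1:**
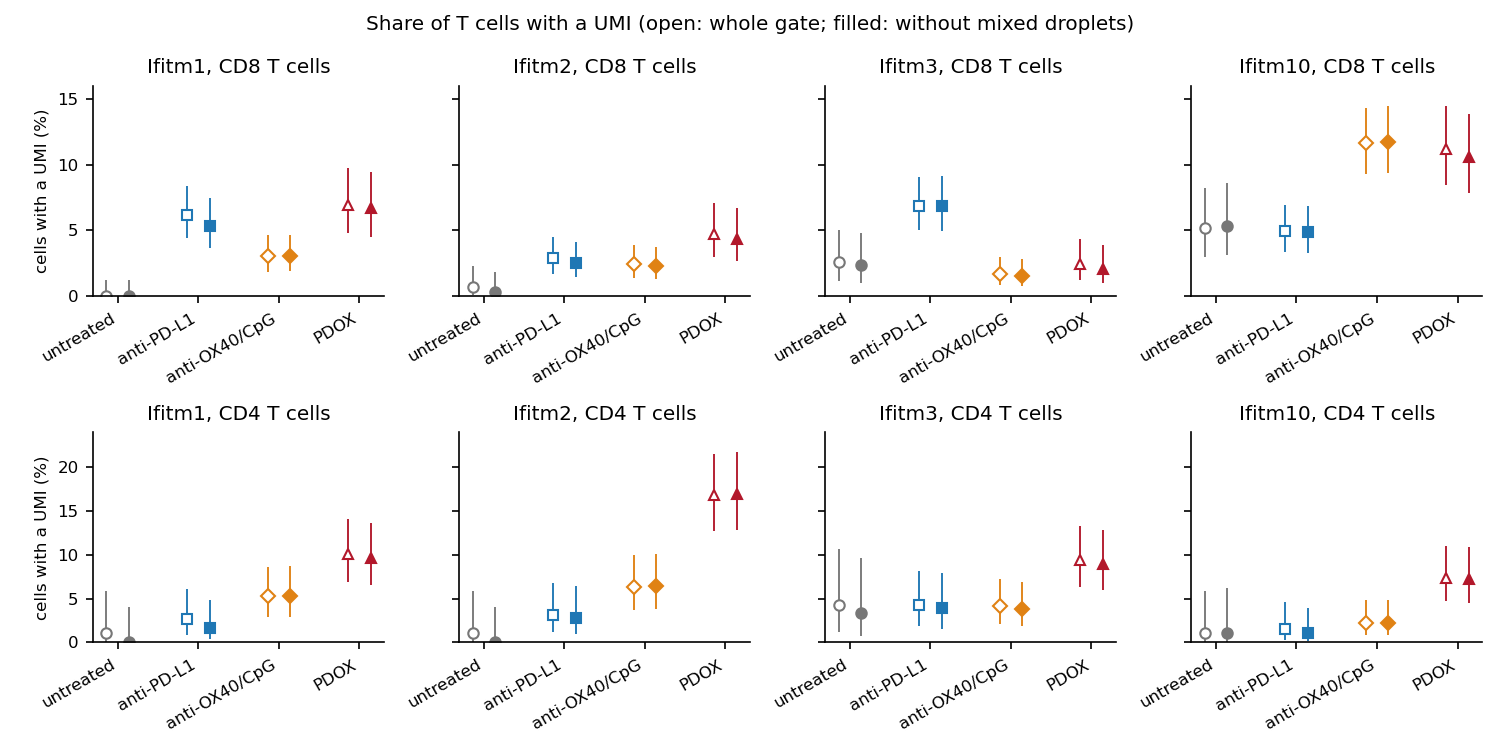
Share of CD8+ (top) and CD4+ (bottom) T cells with at least 1 UMI of *Ifitm1*, *Ifitm2*, *Ifitm3* and *Ifitm10* in each library, in percent; open symbols stand for the whole gate, filled ones for the gate without mixed droplets, and bars are exact 95% binomial intervals that cover counting error only. *Ifitm2* reaches 16.96% of PDOX CD4+ T cells without mixed droplets, and *Ifitm10* in CD8+ T cells is near 11% to 12% in both libraries that received anti-OX40/CpG against about 5% in the other 2.

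Measured across all genes with at least 50 UMIs over the libraries compared, a level at least 2-fold above the untreated library was met by 2.1%, 2.08% and 3.49% of genes in CD8+ T cells of the treated libraries and by 1.12%, 3.96% and 6.63% in CD4+ T cells. Of the 4 members with enough UMIs in CD8+ T cells, 2 (*Ifitm1*, *Ifitm2*), 2 (*Ifitm1*, *Ifitm10*) and 3 (*Ifitm1*, *Ifitm2*, *Ifitm10*) were among them. The counts in CD4+ T cells were 0 of 1, 1 of 3 and 1 of 3, with *Ifitm2* called in the latter libraries. The members were chosen on these contrasts, so nothing is read from these counts.

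Free transcripts from lysed cells give UMIs in cells that do not express a gene. B-like cells (129 in all, library medians of 1125.5 to 1301 UMIs, against 1555.5 to 1756 in CD8+ T cells) served as the comparison. *Ifitm1* was detected in 1.55% of B-like cells, *Ifitm2* in 0.775%, *Ifitm3* in 2.33% and *Ifitm10* in 0 of 129, which allows up to 2.33%. The *Ifitm3* shares of CD8+ T cells in the untreated, anti-OX40/CpG and PDOX libraries lay at or near that pooled share. It is the share of the whole B-like gate. Without B-like droplets that also met another type's markers, *Ifitm3* had 0, 2, 0 and 0 UMIs in B-like cells. The gate held few cells per library (30, 56, 7 and 36), so no expression is read from those CD8+ shares. The part of free RNA in them was not tested. In the anti-PD-L1 library, 2 of 56 B-like cells had *Ifitm3* (3.57%), against 6.84% of CD8+ T cells. The 2 B-like cells with *Ifitm1* also came from that library, where 5.34% of unmixed CD8+ T cells had it.

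Genes of myeloid cells served as a second gauge of free RNA. Their T-cell level was taken as a percentage of their level in monocyte-like cells of the same library. In CD8+ T cells without mixed droplets the median of these genes was 0.875%, 1.63%, 0.0604% and 0.215%, and *Ifitm3* stood at 0.141%, 0.564%, 0.150% and 0.273%. *Ifitm3* was thus below the myeloid median in the untreated and anti-PD-L1 libraries and above it in the others. In the CD4+ T cells of the PDOX library *Ifitm3* stood at 1.60% and *Ifitm2* at 25.3%, against a myeloid median of 0.292%. The highest single gene, *S100a9* at 47.3%, rests on 3 UMIs in these T cells against 1 in monocyte-like cells. The next, *Cst3*, stood at 2.15%. In the same CD4+ T cells *Ifitm1* stood higher than in monocyte-like cells, at 8.33 against 0.862 UMIs per 10000. Monocyte-like cells held little *Ifitm1*, so they are a poor gauge of its free RNA. Richer in it were basophil-like cells (94.4, pooled over libraries), neutrophil-like cells (21.6, pooled) and PDOX droplets with epithelial genes (77.3). The part of free RNA in the *Ifitm1* UMIs was not tested.

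The monocyte-like cells carried *Ifitm3*, *Ifitm2* and *Ifitm6* in every library. The *Ifitm3* level was 109, 93.1, 86.0 and 78.7 UMIs per 10000, and 96.7% of the 90 cells had a UMI. The *Ifitm2* level was 23.3, 22.4, 27.2 and 28.6, and that of *Ifitm6* 7.32, 7.08, 5.31 and 5.79, in 70% of the cells. The PDOX to untreated ratio was 0.726 for *Ifitm3* (0.634 to 0.832) and 1.23 for *Ifitm2* (0.936 to 1.63). *Ifitm1* was low in them, with 1, 126, 3 and 7 UMIs, 122 of which came from 1 droplet of the anti-PD-L1 library. *Ifitm10* was found in 0 of 90, which allows up to 3.33% of cells. In 85 of the 90 cells *Ifitm2* and *Ifitm3* were detected together, and all 63 cells with *Ifitm6* also had both.

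Monocytes in mouse blood divide into classical cells, which carry *Ly6c2* and *Ccr2*, and nonclassical cells, which carry *Nr4a1* and *Ace*. The *Ifitm3* level of classical-like cells was 97.5, 94.3, 88.3 and 91.6 UMIs per 10000, and that of nonclassical-like cells 125, 92.2, 78.9 and 68.2. For *Ifitm2* these were 17.7, 23.5, 27.2 and 24.5 against 31.0, 22.1, 27.2 and 33.1. The order of the subsets was not the same in all libraries for either gene. Of the libraries only PDOX had at least 10 cells of both subsets, so the test could not be made on all UMIs. With cells thinned to 750 UMIs and gated on the thinned counts, anti-PD-L1 (27 nonclassical-like and 19 classical-like cells) and PDOX (21 and 12) could be compared. This left 1 residual degree of freedom. None of 226 genes (0%) was then called by edgeR, while 51 had an unadjusted p under 0.05. The nonclassical-like minus classical-like difference was 0.26 (SE 0.30, adjusted p = 0.662, edgeR) for *Ifitm2* and -0.20 (SE 0.33, adjusted p = 0.758) for *Ifitm3* on the log2 scale.

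NK-like cells showed the converse of monocyte-like cells. *Ifitm10* was detected in 4 of 14, 2 of 5, 11 of 33 and 7 of 15 NK-like cells, with levels of 2.31, 1.90, 2.04 and 2.65 UMIs per 10000. The counts are small and the libraries were not distinguishable at this depth. *Ifitm1*, *Ifitm3* and *Ifitm6* were detected in 0 of 67 NK-like cells, which allows up to 4.48% for each, and *Ifitm2* in 1.

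**Figure D2:**
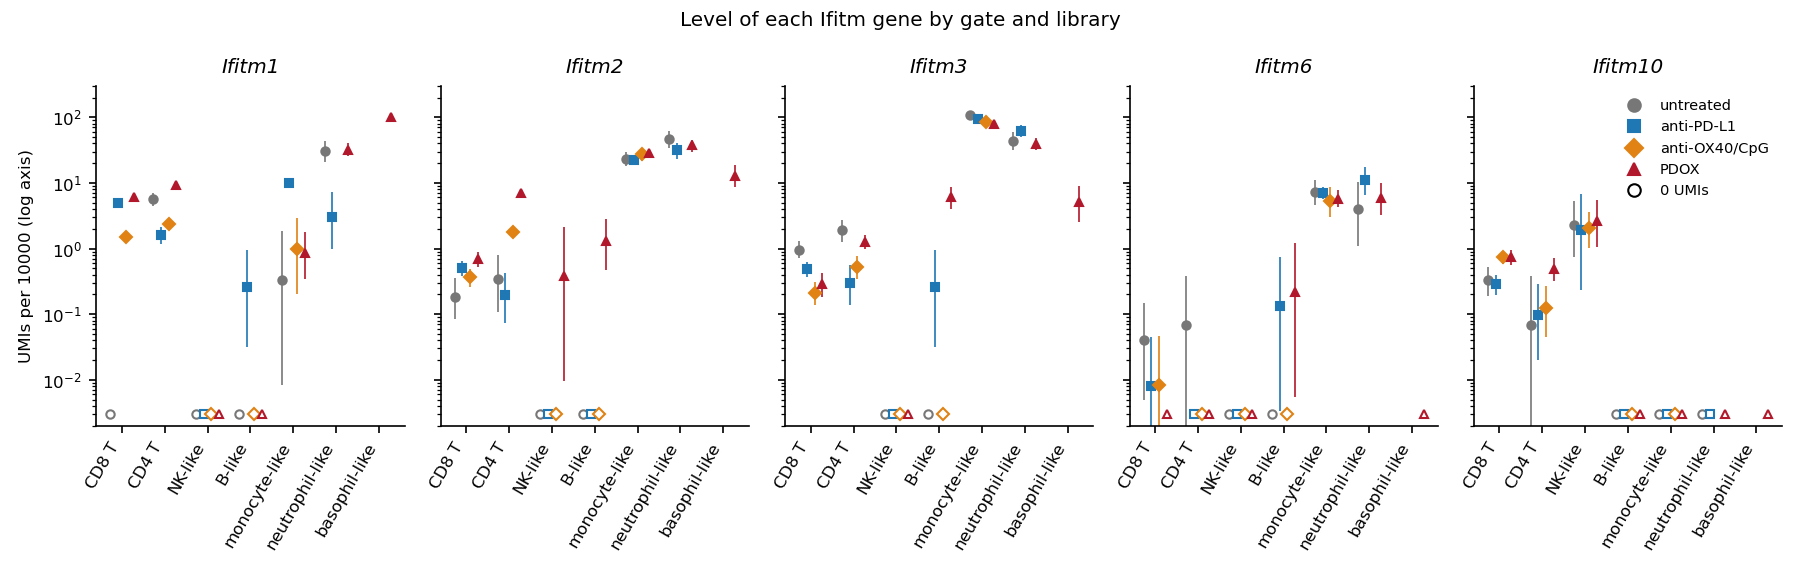
Level of each member in UMIs per 10000 (log axis) by library in CD8+ T, CD4+ T, NK-like, B-like, monocyte-like, neutrophil-like and basophil-like cells. Bars are exact 95% Poisson intervals that cover counting error only, and open symbols at the bottom stand for 0 UMIs. *Ifitm3* is highest in monocyte-like cells in every library, and *Ifitm10* is highest in NK-like cells, at 1.90 to 2.65 UMIs per 10000. *Ifitm6* is at 5.31 to 7.32 in monocyte-like and 4.00 to 11.1 in neutrophil-like cells.

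*Ifitm1*, *Ifitm2* and *Ifitm3* were found in the same T cells more often than their shares give, and *Ifitm10* was not. Without mixed droplets, 32 CD8+ T cells had both *Ifitm1* and *Ifitm2*, where independence within each library gives 2.53. They made up 39.5% of the *Ifitm1*-positive and 64.0% of the *Ifitm2*-positive cells. Among CD4+ T cells 38 had both, where independence gives 5.74, and these were 84.4% of the *Ifitm1*-positive and 53.5% of the *Ifitm2*-positive cells. *Ifitm3* accompanied them, with 22 CD4+ T cells positive for *Ifitm1* and *Ifitm3* (independence gives 3.17) and 28 for *Ifitm2* and *Ifitm3* (5.25). All 3 genes were detected together in 0, 0, 4 and 18 CD4+ T cells and in 0, 3, 3 and 4 CD8+ T cells. *Ifitm10* shared 3 CD8+ T cells with *Ifitm1* (independence gives 6.96), 3 with *Ifitm2* (4.55) and 1 with *Ifitm3* (4.49). Deeper cells are more likely to show any pair of genes. With every cell thinned to 750 UMIs, *Ifitm1* and *Ifitm2* were still found together in 24 CD8+ T cells (independence gives 1.55) and 17 CD4+ T cells (2.30). These thinned counts are of whole gates, drawn on the thinned UMIs and with mixed droplets left in.

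Considering *Ifitm1* and *Ifitm2* as 1 group, cells positive for either were 1, 40, 24 and 34 of the unmixed CD8+ T cells (0.336%, 6.68%, 3.66% and 7.82%) and 0, 8, 20 and 50 of the CD4+ T cells (0%, 4.47%, 7.60% and 17.3%). The partners differed between libraries: among anti-PD-L1 CD8+ T cells 7 had both genes and 21 had *Ifitm1* without *Ifitm2* or *Ifitm3*, whereas in the PDOX library 14 had both and 13 had *Ifitm1* without the others. In the PDOX CD4+ T cells 27 had both genes, 18 had *Ifitm2* without *Ifitm1* or *Ifitm3* and 1 had *Ifitm1* without the others.

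**Figure D3:**
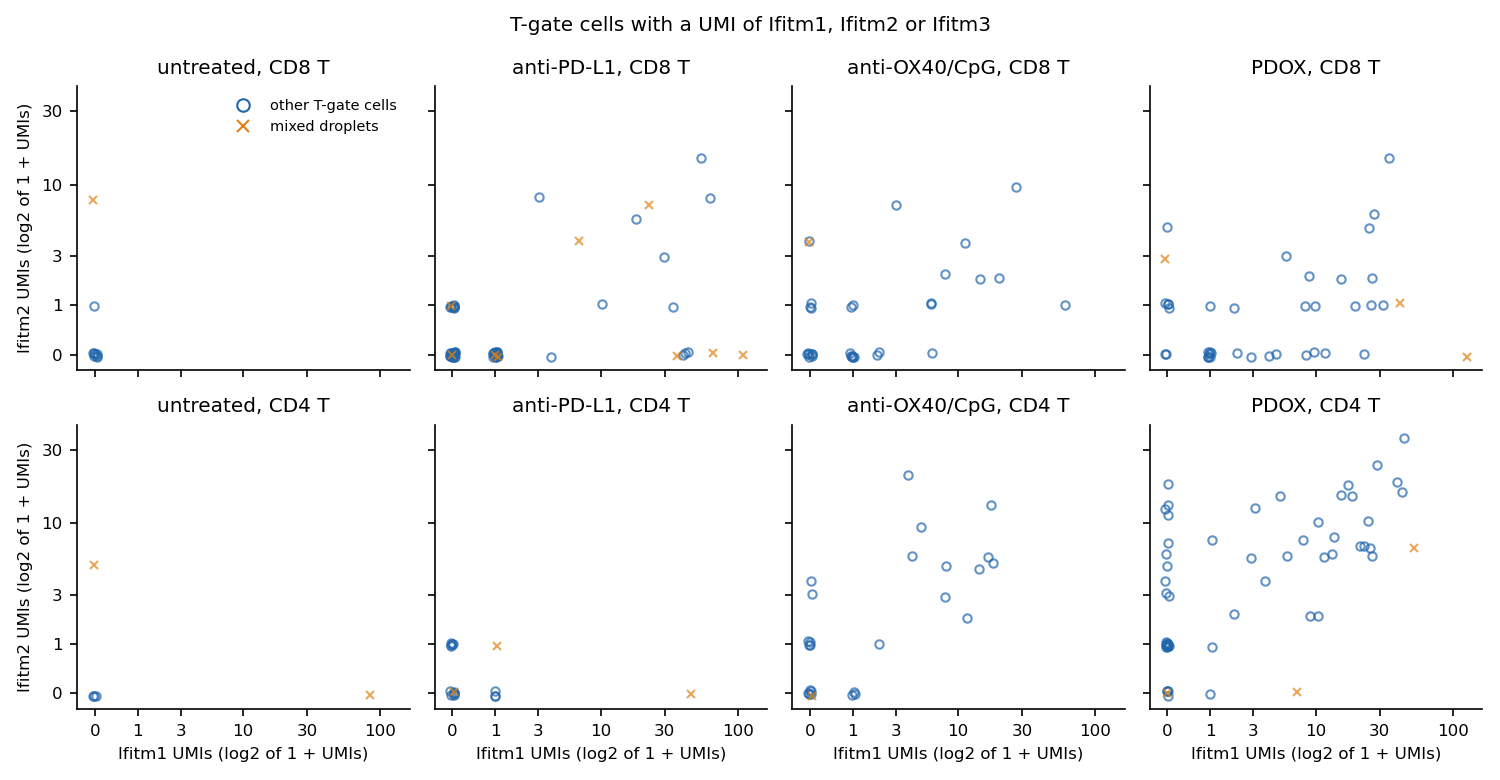
UMIs of *Ifitm1* (x axis) and *Ifitm2* (y axis), both as log2 of 1 plus the UMIs, in each CD8+ (top) or CD4+ (bottom) T-gate droplet with a UMI of *Ifitm1*, *Ifitm2* or *Ifitm3*, by library; circles are T cells, crosses are mixed droplets, and points are jittered slightly. Of the unmixed PDOX CD4+ T cells, 27 are positive for both genes, with widely varying proportions, and 18 have *Ifitm2* without *Ifitm1* or *Ifitm3*. The untreated panels hold almost no point away from 0 that is not a cross.

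The *Ifitm1*, *Ifitm2* and *Ifitm3* UMIs lay mainly in cells that also had *Id2*. Among unmixed CD8+ T cells the 671 with an *Id2* UMI had an *Ifitm1* level of 5.99 per 10000 against 0.191 in the 1317 without, and held 95.4% of its UMIs and 93.6% of those of *Ifitm2*. The order was the same in each treated library, at 9.49 against 0.205 (anti-PD-L1), 3.74 against 0.0705 (anti-OX40/CpG) and 7.13 against 0.616 (PDOX). For *Ifitm10* the difference was small, with 0.656 against 0.486 per 10000, and 11.9% against 6.68% of cells. *Id2*-positive cells were deeper, with a median of 1875 against 1605 UMIs. At 750 UMIs per cell, *Ifitm1* was detected in 7.32% of *Id2*-positive and 0.614% of *Id2*-negative CD8+ T cells.

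In CD4+ T cells the division was sharper. The 320 unmixed cells with *Id2* held 99.3% of the *Ifitm1*, 98.1% of the *Ifitm2*, 92.1% of the *Ifitm3* and 88.2% of the *Ifitm10* UMIs. The levels were 8.51 against 0.0533 per 10000 for *Ifitm1*, 7.14 against 0.120 for *Ifitm2* and 1.46 against 0.107 for *Ifitm3*. In the PDOX library all 429 *Ifitm1* UMIs lay in the 168 cells with *Id2* and none in the 121 without. The anti-PD-L1 library did not show this, since its 3 *Ifitm1* UMIs came from cells without *Id2*. In that library 3 of the 8 CD4+ T cells positive for *Ifitm1* or *Ifitm2* had *Id2*, against 16 of 20 after anti-OX40/CpG and 46 of 50 after PDOX.

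Cells with *Klrk1* were fewer and richer still. The 231 unmixed CD8+ T cells with *Klrk1* had 13.6 *Ifitm1* UMIs per 10000 against 0.555 in the 1757 without, and 1.99 against 0.132 of *Ifitm2*. *Ifitm1* was detected in 17.8% of the former and 2.28% of the latter, and *Ifitm10* in 17.3% and 7.28%. Of the CD4+ T cells 67 had *Klrk1*, of which 43 were in the PDOX and 20 in the anti-OX40/CpG library. *Ifitm2* was detected in 49.3% of these 67 and in 5.05% of the 752 without, and *Ifitm1* in 37.3% and 2.66%. At 750 UMIs per cell the shares for *Ifitm2* were 46.7% and 3.68%. Among the 99 CD8+ T cells positive for *Ifitm1* or *Ifitm2*, 67.7% had *Id2* and 47.5% had *Klrk1*, against 33.8% and 11.6% of all unmixed CD8+ T cells. Among the 78 positive CD4+ T cells these were 83.3% and 42.3%, against 39.1% and 8.18%. The CD4+ libraries were not alike in this: *Klrk1* was found in 0 of the 8 positive cells of the anti-PD-L1 library, in 50% after anti-OX40/CpG (7.60% of all its unmixed CD4+ T cells) and in 46% after PDOX (14.9%). The PDOX library held 50 of the 78 positive cells and had the highest share of CD4+ T cells with *Id2* (58.1%); there 92% of the positive cells had *Id2*.

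Whether the members differ between effector-like and naive-like T cells does not use *Id2* or *Klrk1* and could be tested, since each library holds both subsets. Effector-like cells had at least 3 of the 7 genes *S100a4*, *S100a6*, *S100a10*, *Vim*, *Lgals1*, *Crip1* and *Ahnak*. Naive-like cells had at least 2 of 7 genes of naive T cells, among them *Ccr7*, *Lef1*, *Dapl1*, *Igfbp4*, *Tcf7* and *Satb1*, and at most 1 effector marker. Effector-like cells were 47.1%, 49.3%, 57.0% and 71.5% of CD8+ and 48.4%, 47.1%, 61.7% and 76.4% of CD4+ T cells. In naive-like cells the whole family was close to 0, with no more than 7 UMIs of any member in any library. In unmixed effector-like CD8+ T cells the *Ifitm1* level was 0, 5.55, 2.26 and 5.45 per 10000, against 0, 0.291, 0 and 0.403 in naive-like cells. For *Ifitm2* it was 0.0397, 0.713, 0.506 and 0.877 against 0 in all 4 libraries, and for *Ifitm10* 0.397, 0.418, 0.818 and 0.860 against 0, 0, 0.262 and 0.202. In unmixed effector-like CD4+ T cells *Ifitm1* stood at 0, 0.135, 3.38 and 9.99 and *Ifitm2* at 0, 0.338, 2.60 and 8.64. The untreated library was thus the lowest for *Ifitm1* and *Ifitm2* among effector-like cells too, while for *Ifitm1* in CD8+ cells the order of PDOX and anti-PD-L1 (4.29 and 3.33 over the unmixed gate) turned.

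The UMIs of each subset were added up within a library, and the sums were tested with edgeR's quasi-likelihood test with the library as a block, leaving the defining markers out. For CD4+ T cells, 65 of 1211 genes, or 5.37%, passed an adjusted p of 0.05 (43 higher and 22 lower in effector-like cells). *Ifitm1* was the only member with enough counts for the test, with a difference of 5.50 on the log2 scale (SE 0.54, adjusted p = 9.43e-07, edgeR). It reached the count minimum only through effector-like cells, so its direction was fixed and nothing is read from the call. With a library left out the difference was 4.71 (PDOX, adjusted p = 0.00024) to 9.64 (anti-OX40/CpG, adjusted p = 2.05e-12), and all 84 of its untreated UMIs and most of its anti-PD-L1 UMIs lay in mixed droplets. Without mixed droplets it did not reach the count minimum and has no value. In CD8+ T cells 206 of 3367 genes, or 6.12%, were called, and none of the members reached the count minimum, since naive-like cells had too few UMIs.

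**Figure D4:**
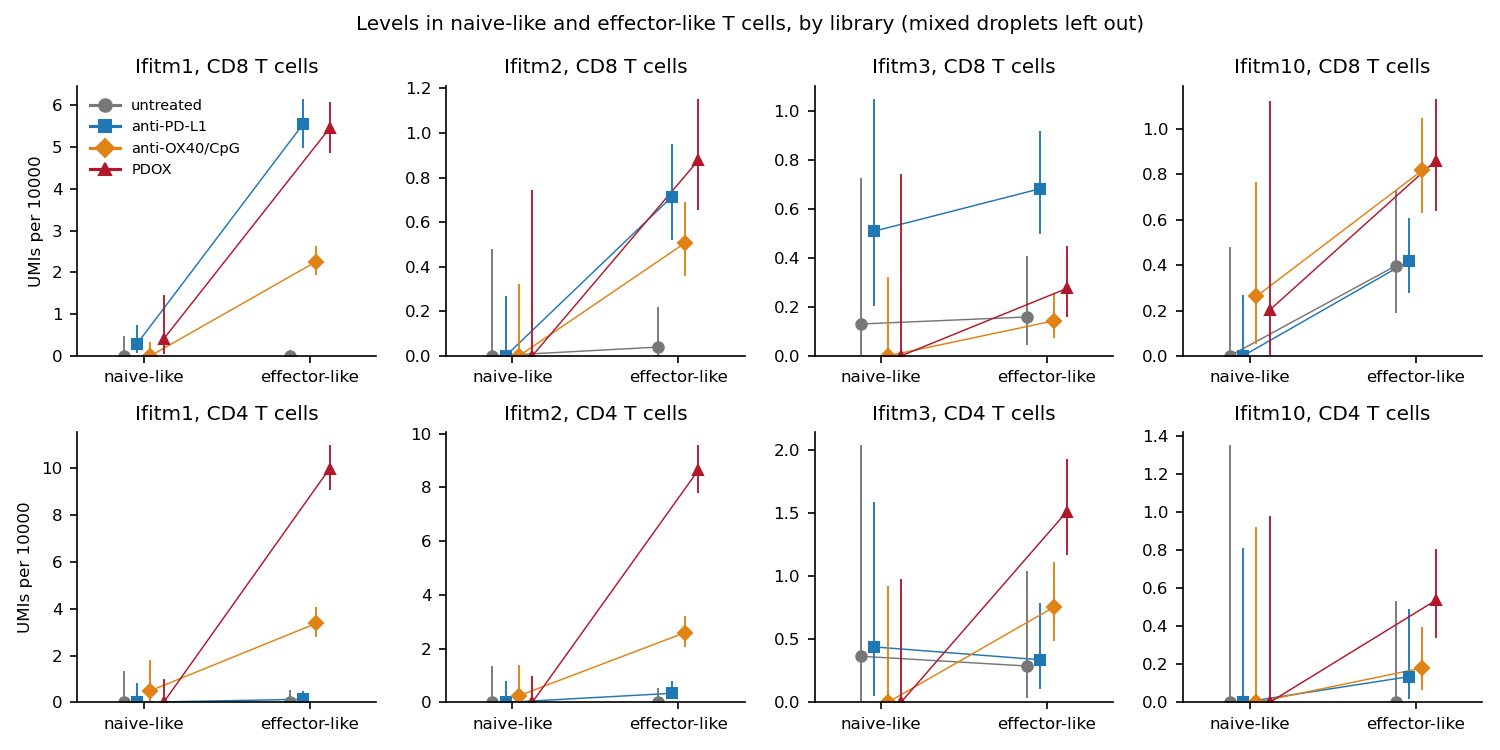
Level of *Ifitm1*, *Ifitm2*, *Ifitm3* and *Ifitm10* in UMIs per 10000 in effector-like and naive-like T cells without mixed droplets, with 1 point per library. Naive-like CD8+ T cells have no *Ifitm2* UMI in any library, while effector-like PDOX CD4+ T cells reach 9.99 for *Ifitm1* and 8.64 for *Ifitm2*.

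As the family is known for induction by interferon, T cells with an interferon response were compared with the rest. Interferon-responding cells had at least 2 of *Ifit1*, *Ifit3*, *Isg15*, *Rsad2*, *Usp18*, *Oasl2*, *Mx1* and *Rtp4*, and the others had none. They were 24, 121, 25 and 24 of the CD8+ T cells (7.74%, 19.2%, 3.78% and 5.38%). Genes known to follow interferon were higher in these cells. Of the interferon-stimulated genes listed, 14 of 20 tested were called higher and none lower, among them *Irf7*, a transcription factor of the type I response, by 1.87 (SE 0.23), *Herc6*, an ISG15 ligase, by 1.60 (SE 0.28) and *Trim30a* by 1.495 (SE 0.21). Of the interferon-gamma-induced GTPases 6 of 11 were called higher, led by *Gbp6* with 2.08 (SE 0.38) and *Igtp* with 1.32 (SE 0.22). In this comparison 83 of 4596 genes, or 1.81%, were called by edgeR.

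*Ifitm1* and *Ifitm3* were called in this comparison, and both calls rested on mixed droplets. *Ifitm1* was higher by 1.90 (SE 0.23, adjusted p = 8.17e-07, edgeR) and *Ifitm3* by 2.56 (SE 0.45, adjusted p = 0.000465). *Ifitm2* differed by 0.51 (adjusted p = 0.833) and *Ifitm10* by -0.26 (adjusted p = 0.946). All 173 *Ifitm1* UMIs of the interferon-responding PDOX cells lay in 2 droplets, and all 40 *Ifitm3* UMIs of the untreated ones in 1. Without mixed droplets the *Ifitm1* levels were 0, 5.63, 1.04 and 0 in interferon-responding against 0, 3.22, 1.67 and 5.13 per 10000 in the other CD8+ T cells. The fitted difference was then -0.08 (adjusted p = 0.998, edgeR), and *Ifitm3* did not reach the count minimum. Without the untreated library *Ifitm3* differed by 1.21 (adjusted p = 0.162), and without the PDOX library *Ifitm1* by 1.44 (adjusted p = 0.069).

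In CD4+ T cells, where 3 libraries had enough interferon-responding cells, 0 of 2118 genes were called by edgeR (0%), while 129 had an unadjusted p under 0.05; DESeq2 also called 0. *Ifitm1* differed by -0.09 (adjusted p = 0.991). The 15 interferon-responding PDOX cells had no *Ifitm1* and no *Ifitm2* UMI, whereas the other 224 held 375 and 339.

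The same lists were looked at in the effector comparison. Of the interferon-stimulated genes 1 of 18 tested was called in CD8+ T cells (*Phf11b*, 1.38 higher in effector-like cells) and 1 of 7 in CD4+ T cells (*Ifi27l2a*, 0.75 higher). None of the 8 and 2 GTPases tested was called. Of the receptor and signalling genes, *Socs3*, a brake on cytokine signalling, was lower in effector-like CD8+ T cells by -1.04, and 1 of 4 was higher in effector-like CD4+ T cells, *Ifngr1*, a chain of the interferon-gamma receptor, by 1.01.

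Treg-like CD4+ T cells had a *Foxp3* UMI or at least 2 of *Il2ra*, *Ikzf2*, *Ctla4* and *Tnfrsf18*, genes of regulatory T cells. *Ifitm2* in them stood at 0, 0.416, 5.65 and 5.198 per 10000, in 4, 10, 29 and 34 cells, against 0, 0.0898, 1.14 and 4.62 in other CD4+ T cells. It was called higher by 1.05 (SE 0.31, adjusted p = 0.0361, edgeR, 3 libraries), where 170 of 2670 genes, or 6.37%, were called. The call rested on the anti-OX40/CpG library, in which 4 Treg-like cells held 45 UMIs: without it the difference was 0.21 (adjusted p = 0.899). It was also lost without anti-PD-L1 (1.04, adjusted p = 0.138), and without PDOX it was 2.23 (adjusted p = 1.84e-05). *Ifitm1* differed by 0.00 (adjusted p = 0.995) and *Ifitm3* by 0.57 (adjusted p = 0.609), while *Ifitm10* did not reach the count minimum. Of the lists, *Ifi27l2a* was higher by 1.15 (1 of 15 tested), *Ifngr1* by 1.09 (1 of 6) and no GTPase was called (0 of 6).

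A further pair of comparisons, added after the values were seen, asked what else marked the positive CD8+ T cells, with mixed droplets and the splitting genes left out. In cells positive for *Ifitm1* or *Ifitm2*, 84 genes were higher and 58 lower (142 of 5270, or 2.69%, edgeR, 3 libraries, since the untreated one had 1 positive cell). Over all libraries 82.8% of the positive cells were effector-like, against 55.9% of all unmixed CD8+ T cells. Differences of effector-like cells in general can therefore not be told apart here from traits of the positive cells. *Ifitm3* came out 3.43 higher, which restates the co-detection described above, so nothing is read from it. The genes named next were chosen after their values were seen. Higher were *Itgb1*, the integrin beta-1 chain, by 2.02 (SE 0.17), *Ccr2* by 2.15 (SE 0.29) and *Cxcr3*, both chemokine receptors, by 1.21 (SE 0.25). *Lgals3*, which encodes galectin-3, was higher by 3.39 (SE 0.18, adjusted p = 2.46e-15), the actin-capping gene *Capg* by 2.59 (SE 0.22) and the S100 gene *S100a4* by 2.62 (SE 0.17). The NK receptor genes *Klrc1* and *Klrc2*, which encode NKG2A and NKG2C, were higher by 2.70 (SE 0.22) and 2.24 (SE 0.30). *Fut7*, a fucosyltransferase that makes selectin ligands, came out higher by 3.41 (SE 0.65, from 11 UMIs in the positive and 11 in the negative cells). The transcription factor genes *Runx2* and *Bhlhe40* did so by 2.29 (SE 0.40, 29 against 68) and 2.12 (SE 0.43, 25 against 70). *Fut7*, *Runx2* and *Bhlhe40* were so sparse in the negative cells that they reached the count minimum only with the positive cells counted in. Nothing is therefore read from their direction. *Dapl1*, *Igfbp4*, *Ccr7* and *Lef1*, genes of naive T cells, were lower by -1.89, -1.53, -0.95 and -0.84, and *Bcl2*, a survival gene, by -1.17. *Ccl5* (0.29, adjusted p = 0.403), *Gzmb* (0.59, adjusted p = 0.423) and *Klrg1* (-0.95, adjusted p = 0.628) were not called. None of 23 interferon-stimulated genes and 11 GTPases was called. Positive cells were deeper, with medians of 2023 against 1720, 2102.5 against 1717.5 and 1786 against 1664 UMIs, library by library.

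In *Ifitm10*-positive CD8+ T cells (16, 29, 77 and 46 cells) 52 genes were higher and 30 lower (82 of 4308, or 1.9%, edgeR). Among the higher ones, named after their values were seen, *Ccl5* was higher by 1.72 (SE 0.10, adjusted p = 1.04e-16, edgeR) and the chemokine gene *Ccl4* by 1.61 (SE 0.19). The granzyme genes *Gzmm*, *Gzmb* and *Gzma* were higher by 1.66 (SE 0.26), 1.39 (SE 0.17) and 1.34 (SE 0.17). *Ifng* came out higher by 1.68 (SE 0.36, 39 UMIs in the positive against 95 in the negative cells). *Slamf7*, a receptor of NK cells and cytotoxic T cells, did so by 1.66 (SE 0.41, 32 against 82) and *Casp1* by 1.84 (SE 0.50, 25 against 53). *Ifng*, *Slamf7* and *Casp1* reached the count minimum only with the positive cells counted in, so nothing is read from their direction. *Igfbp4*, *Lef1*, *Ccr7* and *Dapl1* were lower, by -1.45, -0.82, -0.78 and -0.65. *Lgals3* (0.55, adjusted p = 0.476) and *Klrc1* (0.68, adjusted p = 0.201), both called in the comparison above, were not called. Called higher in both were *S100a6* (1.21 here and 2.17 above), *Lgals1* (1.11 and 2.19), *Cxcr3* (1.14 and 1.21), *Ahnak* (1.02 and 1.34) and *S100a4* (0.96 and 2.62). All of these but *Cxcr3* are markers used above to define effector-like cells. None of 19 interferon-stimulated genes and 10 GTPases was called. Positive cells were deeper in every library (medians of 1893 to 2159 against 1495 to 1719.5 UMIs), and without the library block 0 genes were called here and 22 in the comparison above. Whether the 2 sets of positive cells differ from each other in any gene was not tested.

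**Figure D5:**
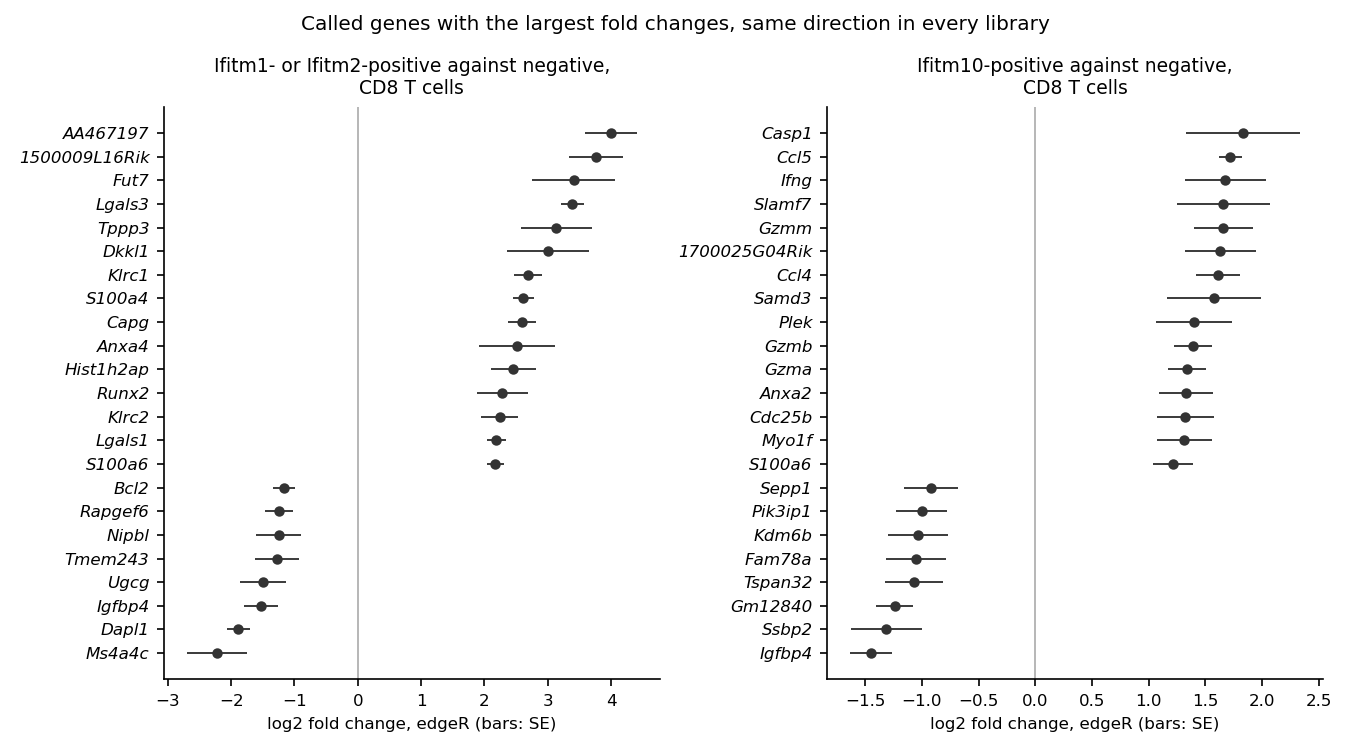
Log2 fold change (edgeR, bars are standard errors) of the called genes with the largest changes that went the same way in every library, in CD8+ T cells positive against negative for *Ifitm1* or *Ifitm2* (left) and for *Ifitm10* (right); genes with no more than 3 UMIs in a group, the members, *Id2* and *Klrk1* are left out. On the left *Lgals3* is at 3.39, and on the right *Ccl5*, *Ccl4* and the granzyme genes lie between 1.34 and 1.72. The largest values are those of *AA467197* on the left (4.005, 39 against 31 UMIs) and *Casp1* on the right (1.84, 25 against 53). Both genes reached the count minimum only with the positive cells counted in, so nothing is read from their direction. The same holds for some other genes shown.

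Over the 16 combinations of library and gate, the genes whose levels ran most like those of a member were named by Pearson's r, on log2 of the level plus 0.1, among 8077 genes. These r are a description, since the 16 points share 4 libraries, differ in cell type and are whole gates with mixed droplets. For *Ifitm3* they were *Klf4* (0.985), *Unc93b1* (0.983), *Alox5ap* (0.981), *Trib1* (0.980) and *Lst1* (0.980). For *Ifitm6* they were *BC028528* (0.998), *Ace* (0.997), *Mpeg1*, *Tifa* and *Sirpb1b* (0.996 each), and for *Ifitm2* *Cyfip1* (0.966), *Fut7* (0.951), *Lgals3* (0.930), *Lilrb4a* (0.928) and *1110008F13Rik* (0.925). *Ifitm1* had no close companion, with *Slfn2* (0.835), *0610009B22Rik* (0.833), *Gmds* (0.824), *Gars* (0.822) and *Sdcbp2* (0.820) nearest. Within the family r was 0.921 between *Ifitm2* and *Ifitm3*, 0.95 between *Ifitm3* and *Ifitm6*, 0.471 between *Ifitm1* and *Ifitm2*, and negative between *Ifitm10* and every other member (-0.553 to -0.875).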

How the data were processed

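Droplet-based 3′ single-cell RNA sequencing was performed on 4 libraries of enriched blood T cells. Per the labels, the authors aligned the reads to mm10, and their processing notes name Seurat version 2; the deposited matrices hold raw UMI counts per gene and droplet, not normalized. Droplets with fewer than 200 genes were left out, and totals leave out 13 genes of mitochondria, 85 of ribosomal proteins and 8 of hemoglobin. Gene positions and promoter windows came from RefSeq tables of GRCm38.p6, the assembly that mm10 names. Depth was 2392650 to 4969885 deposited UMIs per library.

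Samples were grouped by their treatment labels. The members and gene lists were chosen with earlier results of these data known. Gates and subsets were set by marker UMIs; no doublet caller was run, and mixed droplets (2 B, basophil or epithelial, 3 neutrophil or platelet, or 4 monocyte markers) were removed as an alternative. Levels carry exact Poisson, shares exact binomial (Clopper-Pearson) and ratios exact conditional binomial 95% intervals. Sequencing reads were collapsed to UMIs, and a count of 0 allows up to 3 counts. Intervals of levels and ratios and the fold bounds treat UMIs as independent. Where many UMIs share a cell, these intervals are too narrow and the bounds too high. Counts summed per library and subset of at least 10 cells were tested with edgeR 4.0.16 (R 4.3.3; quasi-likelihood, TMM, filterByExpr, Benjamini-Hochberg, library block). List genes named were up to 4 per list with the largest change among called genes with the same direction in every library; pattern genes were the 5 with the highest r among genes with at least 50 UMIs. Some genes of these lists are not reported here. Genes named in the 2 added comparisons were chosen after their values were seen. Alternatives were DESeq2 1.42.0, its size factors, no count minimum, no block, all genes kept, an upper limit of 2900 genes, thinning to 750 UMIs, lineages called at a log1p value above 1, and each library left out. Scripts were tested on simulated data.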

Additional observations from a re-analysis of the deposited data

How the results depend on the processing

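Each result was recomputed under the alternatives named above; 39 ratios and counts of called genes moved little, 55 moved and 2 changed direction. Ratios compare the level of the PDOX with that of the untreated library, and bounds given as at least treat UMIs as independent. With mixed droplets removed, an alternative chosen after seeing the data, *Ifitm1* was at least 65.5 (CD8+) and at least 35.06 (CD4+), *Ifitm2* 31.42 (CD8+), and *Ifitm3* 1.408 (CD8+, opposite in direction to 0.298) and 5.311 (CD4+). With lineages called at a log1p value above 1, *Ifitm1* was at least 35.44 (CD8+) and at least 57.68 (CD4+), *Ifitm2* 0.9442 (CD8+, opposite in direction to 3.72) and 7.027 (CD4+), and *Ifitm3* 0.5334 (CD8+) and 0.2519 (CD4+). That alternative used *Cd8a* and *Cd4* alone and asked for no *Cd3* UMI, so droplets other than T cells could enter. Their part in these values was not tested. At 750 UMIs per cell, *Ifitm1* was at least 28.69 (CD8+) and at least 8.078 (CD4+), *Ifitm2* at least 6.544 (CD4+), and *Ifitm3* 0.9493 (CD8+) and at least 1.227 (CD4+). Naive-like cells alone gave no ratio, as they held too few UMIs.

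Counts of called genes are given in the order CD8+ effector, CD4+ effector, CD8+ interferon and Treg-like, from 206, 65, 83 and 170. DESeq2 called 49, 19, 29 and 43. Without the library block 32, 20, 18 and 53 were called; the block pairs the subsets of a library, which come from the same animals, and the labels give no replicate number shared between groups. Without the count minimum 319, 280 and 251 were called in the first 3. With all genes kept 319 (CD8+ effector) and 272 (Treg-like) were called, and with the upper limit 105 (Treg-like). Without mixed droplets 32 (CD4+ effector) and 31 (CD8+ interferon) were called. Leaving out 1 library gave 48 (anti-OX40/CpG) to 304 (untreated), 17 (PDOX) to 110 (untreated), 33 (PDOX) to 96 (untreated) and 83 (anti-OX40/CpG) to 176 (PDOX). For the CD4+ interferon comparison, with 0 calls, the size factors and all genes kept each gave 1, no count minimum 44, no mixed droplets 3 and a library left out 5 to 20. Of the added comparisons, that of *Ifitm1* or *Ifitm2* (142 calls) gave 62 with DESeq2, 22 without the library block and 46 to 137 with a library left out, and that of *Ifitm10* (82 calls) gave 24, 0 and 8 to 94. The causes were not tested.

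Of the single members in the tests, 74 values kept direction and side of the threshold, 11 were no longer called, 1 was newly called and 11 changed direction. In the CD8+ interferon comparison *Ifitm1* (-0.08282) and *Ifitm10* (0.003019) changed direction without mixed droplets, *Ifitm2* without the untreated library (-0.079; 0.9574 without anti-PD-L1 at the other end) and *Ifitm10* without the PDOX library (0.1065; -0.7142 without anti-PD-L1 at the other end). In the CD4+ interferon comparison *Ifitm1* changed without anti-OX40/CpG (0.6288), without PDOX (1.393) and with the upper limit (0.01172), and it was called without anti-PD-L1 (-9.98). In the Treg-like comparison *Ifitm1* changed with DESeq2 (-0.03425), without the count minimum (-0.1249), without the library block (-0.02223) and without anti-OX40/CpG (-0.7288, against 0.7105 without PDOX), none of them called. The Treg-like call of *Ifitm2* was also lost with DESeq2 (adjusted p = 0.202), without the library block (0.501), with the upper limit (0.142) and without anti-PD-L1 (0.138). It was kept with all genes kept (adjusted p = 0.00879, edgeR), with the size factors of DESeq2 (0.0414) and without the count minimum (0.0387). Without mixed droplets it was kept too (1.14, adjusted p = 0.00613, edgeR), where anti-PD-L1 had too few Treg-like cells to enter. Thinning could not be run for the interferon and Treg-like comparisons, which had under 10 cells in a subset of most libraries, and only thinning could be run for the monocyte subsets.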

Other observations

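Beyond the 4 gates, the family was richest in the granulocytes that escaped the enrichment. The 46 neutrophil-like cells had pooled levels of 21.6 UMIs per 10000 for *Ifitm1*, 36.6 for *Ifitm2*, 46.2 for *Ifitm3* and 6.94 for *Ifitm6*. Of the 18 basophil-like cells, 15 came from the PDOX library and 16 had *Ifitm1*, at a pooled level of 94.4, against 11.6 for *Ifitm2* and 4.24 for *Ifitm3*. The 13 platelet-like droplets had *Ifitm3* at 15.3. *Ifitm10* had no UMI in B-like, neutrophil-like, basophil-like or platelet-like cells.

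T cells in which neither coreceptor was detected (222, 367, 467 and 483) showed the same order of libraries as CD4+ T cells once mixed droplets were removed, with *Ifitm1* at 0.0730, 0.208, 1.35 and 4.59 UMIs per 10000 and *Ifitm2* at 0.0365, 0.0416, 0.774 and 2.78. Mixed droplets held 75.8% of the *Ifitm1* UMIs of these cells. Over all gates, 7, 29, 1 and 10 droplets had at least 2 of the 13 epithelial genes, such as *Krt7*, *Psca* and *Upk1b*, and their *Ifitm1* level was 92.0, 91.0, 136 and 77.3 UMIs per 10000, in 2, 13, 1 and 8 of them. Why such droplets are in blood libraries was not tested.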
